A study of Mus musculus with 18 samples.

Results

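Kidneys taken 3 days after folic acid were compared with kidneys taken 2 days after it, over 6 of the 18 libraries of a time course in male Balb/c mice. The 3 day 2 and the 3 day 3 libraries were chosen by their labels alone. Every mouse of both groups had received folic acid once, into the peritoneum, at 250 mg/kg in 0.3 M sodium bicarbonate, and the labels name no genetic change and no age. The other 4 groups, of 3 libraries each, were untreated kidney and days 1, 7 and 14, and they entered the fit only for the shared estimate of the spread and as levels beside the 2 days compared. RNA came from frozen whole kidney, and the series bears on Cdh11 and Mrc1, which its title calls fibrosis markers. The labels give no group with bicarbonate alone and do not say that each library came from its own animal. The p-values therefore measure the spread between these samples.

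Folic acid at high dose injures the renal tubule. In such injury, cells of the proximal tubule, the segment that takes back most filtered salt, phosphate, amino acids and glucose, lose transporters and enzymes and express injury genes such as Havcr1, which codes for kidney injury molecule-1. Surviving tubule cells then divide to replace lost ones, while macrophages enter, take up debris and present antigen on class II molecules, and fibroblasts lay down collagen. Whole-kidney RNA mixes all of these cells, so fewer cells of a type and less RNA per cell cannot be told apart.

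Day 2 replicate 2 stood apart from the other 5 libraries. It held 8.68 M reads (M, 1e6 reads) assigned to genes, against 20.5 to 45.5 M in the others, and 2.83 M outside the mitochondrial genes. Of the 16824 genes tested, 1773 had no read there, against 254 to 545 in each of the others. It also had 97 genes at over 10 times the level of every other library of the comparison, against 4 to 26 in the others. Mitochondrial genes took 65.0 ± 2.10% of reads at day 2 and 61.6 ± 3.52% at day 3 (mean ± SD, n = 3), ranges that overlapped. Proximal tubule markers summed to 5014 to 8306 CPM (reads per 1e6 assigned reads, TMM-scaled) in the 6 libraries. Marker sums for adrenal (at most 4.12 CPM), muscle (at most 1.76 CPM) and liver (at most 37.7 CPM) were low in all 6. Adipose markers summed to 22.2, 92.3 and 74.5 CPM at day 2 and 46.5, 95.9 and 17.7 CPM at day 3, uneven within both groups, and their part in the results was not tested.

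Genes of the proximal tubule, the distal tubule growth factor gene Egf, a macrophage marker, a class II antigen gene and a complement gene rose between day 2 and day 3. With all 18 libraries in edgeR's quasi-likelihood fit, 37 genes rose, which is 0.220% of those tested, and 5 fell, which is 0.0297%, at an adjusted p under 0.05. Without day 2 replicate 2, 14 of 17775 genes rose, which is 0.0788%, and none fell. In that fit 1005 genes were lower at an unadjusted p under 0.05, and DESeq2 called 167 lower, while limma-voom called none in either direction. Genes called in the same direction in both fits numbered 10, all of them higher at day 3. DESeq2 called these 10 in both fits as well, but its calls held every gene that edgeR called, 42 and 14 in the 2 fits. Limma-voom, and edgeR on the libraries of the 2 days alone, called none of the 10 in either fit. The 10 are Mep1b, Cyp2d9, Miox and Cyp2e1, then Egf, then Adgre1, H2-Aa, C1s1, Dock10 and Scn7a. In each of the 10, the lowest day 3 library lay above the highest day 2 library. When day 3 replicate 1, 2 or 3 was left out together with day 2 replicate 2, 3, 4 and 9 of the 10 were still called, Mep1b, Egf and Scn7a each time. Of the 32 genes whose call was lost without that library, 26 had an adjusted p under 0.1 there, and for 2, Zfhx3 and Zpr1, the fold moved by over 1.5 times.

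**Figure D1:**
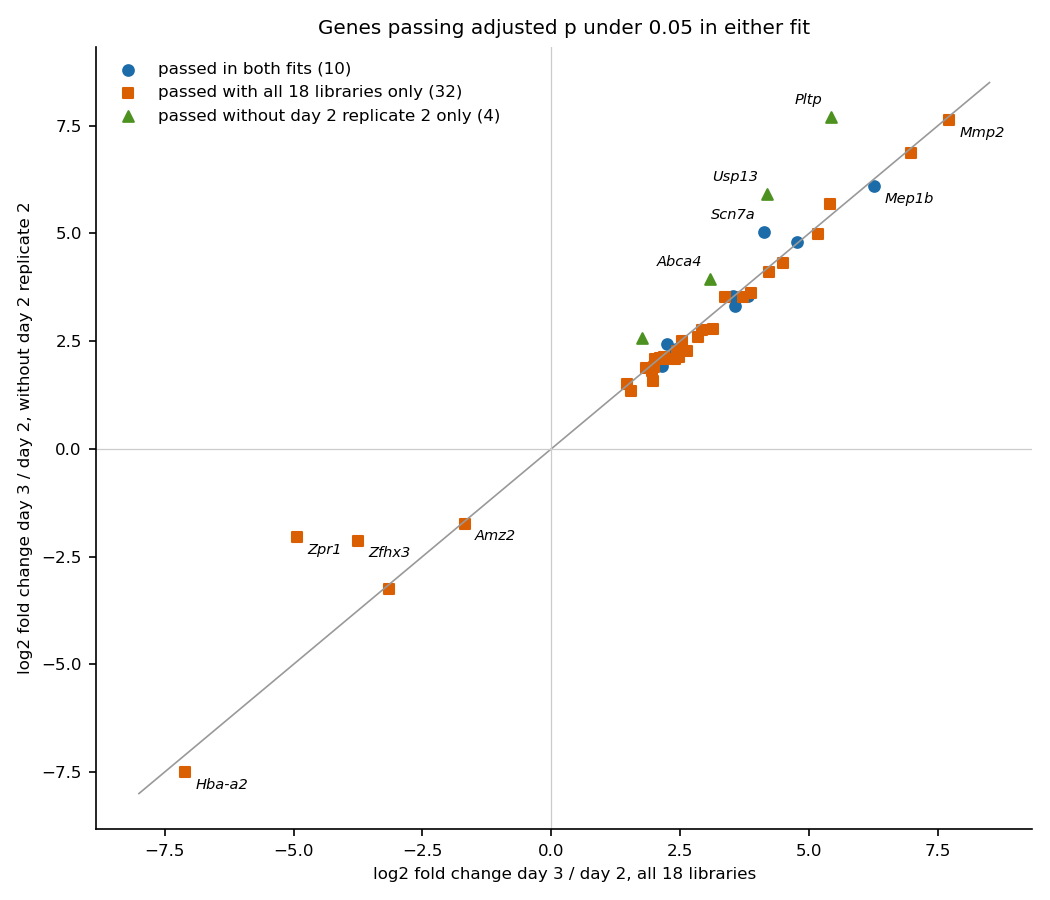
Fitted log2 fold change (day 3 over day 2) of the 46 genes that passed in either edgeR fit, with all 18 libraries on the x axis and without day 2 replicate 2 on the y axis; the grey diagonal marks equal values. The 10 circles passed in both fits, the 32 squares passed only with all libraries and the 4 triangles only without that library; values of Mmp2, 1700071M16Rik, Pltp, Usp13 and Hba-a2 rest on few or no reads at 1 of the days and depend on the prior count.

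The direction was mostly a step up from a level below that of untreated kidney. Of the 37 genes that rose, 35 had a lower mean at day 2 than in untreated kidney, as did 48.7% of all genes tested. At day 3, 19 of them (51.4%) were below the untreated mean, against 46.8% of all genes tested, a similar share. From below the untreated mean at day 2 to above it at day 3 had passed 16 of the 37 (43.2%), against 14.3% of all genes. At day 7, 23 of the 37 (62.2%) had a higher mean than at day 3, against 48.5% of all genes. These shares are a description, since the genes were picked for being higher at day 3 than at day 2.

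Proximal tubule enzymes and a brush-border protease rose, and their day 3 levels were well below those of untreated kidney. Mep1b, the beta subunit of the protease meprin on the brush border, read 0.163, 0 and 0.0384 CPM in the day 2 libraries and 11.4, 4.70 and 8.11 CPM at day 3. Almost no reads came from it at day 2, where the 3 libraries held 8, 0 and 1 reads. The log2 fold change was 6.26 (SE 0.743, edgeR adjusted p = 0.00147) and 6.10 without day 2 replicate 2 (adjusted p = 0.00628). It was 7.84 without day 2 replicate 1 (adjusted p = 0.00460), the library with 8 of the 9 reads, so the size of the fold is uncertain. Its mean was 38.1 CPM in untreated kidney, 1.49 CPM at day 1, 6.82 CPM at day 7 and 21.7 CPM at day 14.

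Miox, which codes for the enzyme that opens the ring of myo-inositol in the first step of its breakdown, read 22.5, 10.5 and 14.1 CPM at day 2 and 79.6, 55.5 and 75.0 CPM at day 3. The 2 groups did not overlap, and the fold was 4.42 (log2 2.14, SE 0.320, edgeR adjusted p = 0.00639). Untreated kidney had a mean of 319.8 CPM, above every library of both days. Cyp2e1, a cytochrome P450 that oxidises ethanol and other small molecules, read 27.4, 31.4 and 14.6 CPM at day 2 and 118, 107 and 119 CPM at day 3. The day 3 libraries lay close together, and the fold was 4.71 (log2 2.24, SE 0.351, edgeR adjusted p = 0.00932). Cyp2d9, another cytochrome P450, read 0.285, 0.338 and 0.231 CPM at day 2 and 7.60, 2.50 and 12.3 CPM at day 3 (log2 4.76, SE 0.686, edgeR adjusted p = 0.00594). It has close relatives in the genome and reads with several alignments were set apart before counting, so its level is uncertain. Without day 2 replicate 2 the adjusted p was 0.0393 for Miox, 0.0295 for Cyp2e1 and 0.0295 for Cyp2d9.

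The promoters of Miox and Cyp2e1 are shown because both genes code for enzymes of the proximal tubule and rose together; they cover 250 bases before to 50 after the RefSeq start on build GRCm38.p6, whose sequence is that of another strain. Capitals mark matches to the motifs searched on both strands: CCAAT (the box bound by NF-Y), GTTAAT (part of the site of the tubule factors HNF1), TTTGAA (core of the cell cycle homology element), the AP-1 letters TGANTCA, the TEAD letters CATTCC, the E2F letters TTTGGCGC or their variant TTTCCCGC, and the NF-κB site. Miox lies at chr15:89334223-89334522, plus strand, and Cyp2e1 at chr7:140763569-140763868, plus strand.
Miox: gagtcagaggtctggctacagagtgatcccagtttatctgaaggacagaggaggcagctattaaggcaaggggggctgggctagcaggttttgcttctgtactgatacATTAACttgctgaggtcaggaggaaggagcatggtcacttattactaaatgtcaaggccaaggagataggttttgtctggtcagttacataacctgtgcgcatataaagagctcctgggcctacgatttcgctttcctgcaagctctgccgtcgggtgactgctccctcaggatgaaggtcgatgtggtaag
Cyp2e1: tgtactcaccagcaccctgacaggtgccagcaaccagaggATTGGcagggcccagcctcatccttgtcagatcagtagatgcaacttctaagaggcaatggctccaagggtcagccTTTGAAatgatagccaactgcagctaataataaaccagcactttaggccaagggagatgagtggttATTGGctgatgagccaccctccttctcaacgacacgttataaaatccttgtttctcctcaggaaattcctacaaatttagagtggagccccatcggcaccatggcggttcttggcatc
In Miox the only match is GTTAAT, read on the opposite strand, beginning at -142 from the start. Cyp2e1 has CCAAT on the opposite strand at -210 and -68 and TTTGAA at -134, and no GTTAAT. Of the 44 proximal tubule genes with a promoter sequence, 12 (27.3%) held GTTAAT, against 547 of the 11599 tested genes with one (4.72%). These matches are letters in a window and show no binding.

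Of the 56 proximal tubule genes listed, 56 were tested, 5 rose with all libraries and none fell (0 lower at an unadjusted p under 0.05, and 0 lower by DESeq2). In 21 of the 56, which is 37.5%, all 3 day 3 libraries lay above all 3 day 2 libraries, against 1514 of the 16824 genes tested (9%). In none did they lie below, against 6.56% of all genes. The median log2 fold change of the list was 0.44, and 0.02 over all genes. Without day 2 replicate 2, 26 of the 56 lay apart upwards and 1 downwards, against 13.7% and 12.4% of all genes, and the list median was 0.52. The summed level of the list was 5014 to 6015 CPM at day 2, 6758 to 8306 CPM at day 3 and 20418 to 22852 CPM in untreated kidney, so the sums of the 2 days did not overlap.

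Slc34a1, the phosphate transporter of the brush border, read 89.3, 57.0 and 98.8 CPM at day 2 and 217, 267 and 233 CPM at day 3, with a mean of 707 CPM in untreated kidney. It rose with all libraries (log2 1.55, SE 0.274, edgeR adjusted p = 0.0184) and had an adjusted p of 0.0738 without day 2 replicate 2. Slc7a13, an amino acid transporter of the late proximal tubule, read 8.15, 7.44 and 8.73 CPM at day 2 and 37.2, 24.1 and 49.5 CPM at day 3, with adjusted p-values of 0.0468 and 0.123 in the 2 fits. In both genes the groups were apart, and the log2 fold change of Slc7a13 was 2.18 with and 2.12 without that library. Lrp2, the receptor megalin that takes up filtered protein, did not pass: its day 2 libraries read 587, 542 and 506 CPM and those of day 3 865, 708 and 911 CPM (log2 0.60, adjusted p = 0.212). Mep1a, the alpha subunit of meprin, read 108, 74.9 and 110 CPM and then 203, 177 and 230 CPM, with an adjusted p of 0.0712. Slc22a7, an organic anion transporter, had no read in any day 2 library and 0.365, 1.14 and 0.577 CPM at day 3.

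Other transporters and enzymes found mainly in epithelium rose with all 18 libraries and lost the call without day 2 replicate 2. Slc22a22, a prostaglandin transporter of mouse kidney, read 1.04, 0.338 and 0.0384 CPM at day 2 and 12.1, 4.93 and 13.6 CPM at day 3 (adjusted p = 0.0286 and 0.0844). Ces1f, a carboxylesterase, read 6.30, 5.07 and 10.3 CPM and then 31.6, 29.1 and 58.5 CPM (adjusted p = 0.0166 and 0.0682). The retinol dehydrogenase genes Rdh16 and Rdh16f2, the carboxylesterase gene Ces1d, Susd2, Mpv17l, Slc10a5 and Etnppl were called in the same way, with log2 fold changes from 1.84 for Slc10a5 to 5.17 for Etnppl. Rdh16, Rdh16f2, Ces1d and Ces1f have near copies, and Slc34a1 and Rdh16 share exonic bases with another counted gene, so their levels are uncertain.

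**Figure D2:**
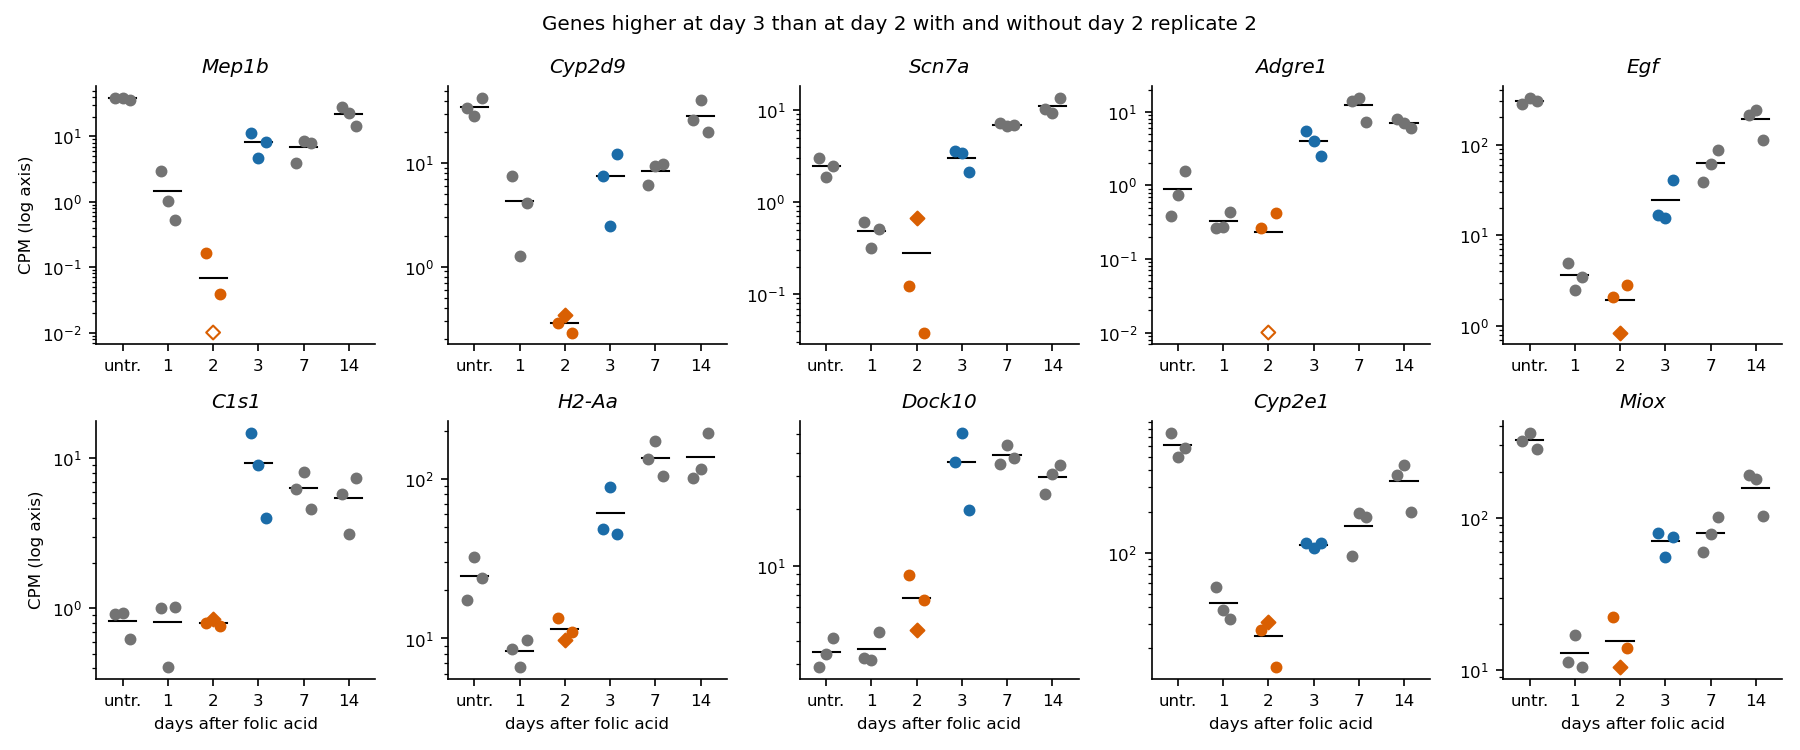
CPM (log axis) in each of the 18 libraries by days after folic acid for the 10 genes that rose with and without day 2 replicate 2, with day 2 in orange, day 3 in blue, day 2 replicate 2 as a diamond, group means as lines and open symbols on the floor for a library without a read. In each panel the 3 blue points lie above the 3 orange ones; Mep1b, Egf, Cyp2e1 and Miox stayed far below untreated kidney at day 3, while Adgre1, C1s1, H2-Aa and Dock10 had passed it.

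Egf was the distal tubule gene that rose. It codes for epidermal growth factor, made as a membrane precursor in the thick ascending limb and distal convoluted tubule. Its libraries read 2.08, 0.845 and 2.81 CPM at day 2 and 16.7, 15.5 and 40.8 CPM at day 3, with no overlap. The fold was 11.8 (log2 3.56, SE 0.466, edgeR adjusted p = 0.00304), and the adjusted p was 0.0165 without day 2 replicate 2. Without day 3 replicate 3, the highest library, the log2 value was 2.97 (adjusted p = 0.00569). The mean was 306 CPM in untreated kidney, 3.66 CPM at day 1, 62.1 CPM at day 7 and 189 CPM at day 14, so day 3 was far below the untreated level.

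Of the 27 loop and distal tubule genes, all tested, Egf alone was called. In 8 (29.6%) the groups lay apart upwards and in none downwards, against 9% and 6.56% of all genes tested. At an unadjusted p under 0.05, 6 were higher and 4 lower, and DESeq2 called 4 higher. The median log2 fold change was 0.41, and 0.27 without day 2 replicate 2. Without that library 10 lay apart upwards and 1 downwards, against 13.7% and 12.4% of all genes. Umod, which codes for uromodulin, the main protein of normal urine, read 178, 160 and 108 CPM at day 2 and 316, 268 and 461 CPM at day 3. The groups were apart but the adjusted p was 0.0712. Slc12a1, the sodium-potassium-chloride cotransporter of the thick limb, read 39.8, 14.9 and 49.5 CPM and then 111, 84.6 and 172 CPM, with an adjusted p of 0.0707. Of 23 collecting duct genes tested among 25 entries, none was called by edgeR, 3 were higher at an unadjusted p under 0.05 and 2 by DESeq2, and 3 lay apart upwards and 1 downwards. Among 11 tested ligands and receptors of the ErbB family, to which Egf belongs, Egf was again the only call, 2 members lay apart downwards, and the median was -0.36.

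Macrophage genes were higher at day 3, and Adgre1 among them rose in both fits. Adgre1 codes for F4/80, a surface receptor that marks mature mouse macrophages. It read 0.265, 0 and 0.423 CPM at day 2 and 5.51, 4.02 and 2.49 CPM at day 3, so that every day 3 library was above every day 2 library. The fold was 14.1 (log2 3.82, SE 0.630, edgeR adjusted p = 0.0128), with an adjusted p of 0.0393 without day 2 replicate 2. Mrc1, the mannose receptor CD206 of tissue and repair macrophages and 1 of the genes in the series title, read 0.469, 1.18 and 1.15 CPM and then 10.7, 8.26 and 8.53 CPM. All of its day 3 libraries were several times higher than any of day 2, and it rose with all libraries (log2 3.37, SE 0.593, edgeR adjusted p = 0.0184). In the fit without day 2 replicate 2 the log2 value was 3.51 and the adjusted p 0.0548, just past the threshold. Mean levels were 1.84 CPM in untreated kidney, 1.17 CPM at day 1, 17.3 CPM at day 7 and 10.2 CPM at day 14 for Mrc1, and 0.895, 0.323, 12.3 and 7.01 CPM for Adgre1.

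Of 34 macrophage and monocyte entries, 31 were tested, 2 rose and none fell by edgeR (0 lower at an unadjusted p under 0.05, and 0 by DESeq2). All 3 day 3 libraries lay above all 3 of day 2 in 16 of the 31 (51.6%) and below in none. Over all genes tested the shares were 9% and 6.56%. The median log2 fold change of the list was 1.60. It was 1.57 without day 2 replicate 2. Members that did not pass include Mpeg1, a pore-forming protein of macrophages, at 2.65, 0.507 and 3.50 CPM and then 10.9, 14.2 and 9.37 CPM (adjusted p = 0.0615). Lyz2, which codes for lysozyme, read 7.81, 8.79 and 23.9 CPM and then 45.3, 57.4 and 65.0 CPM (adjusted p = 0.0943). Ccr2, the receptor by which monocytes leave the blood, read 2.69, 4.56 and 10.4 CPM and then 16.3, 26.6 and 15.5 CPM (adjusted p = 0.115). Each of these 3 genes lay apart, and their summed list was 103 to 135 CPM at day 2, 223 to 298 CPM at day 3 and 61.9 to 107 CPM in untreated kidney.

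Markers of neutrophils and lymphocytes had no call by edgeR. Of 17 neutrophil entries only 7 were tested, none was called by edgeR (1 higher and 2 lower at an unadjusted p under 0.05, and 0 by DESeq2), and none lay apart. Their sum was 266, 741 and 89.8 CPM at day 2 and 155, 81.1 and 67.0 CPM at day 3, groups that overlapped; most of it was Lcn2, which injured tubules also make and which read 259, 680 and 81.7 CPM at day 2. Of 20 T and natural killer cell entries 10 were tested, and 2 lay apart upwards; their sum was 2.77 to 7.94 CPM at day 2 and 6.10 to 6.86 CPM at day 3. Of 11 B and plasma cell entries 6 were tested, and 3 lay apart upwards, with sums of 2.03 to 3.34 and 3.98 to 6.86 CPM. The share apart upwards over all genes tested was 9%. Neither lymphocyte list had a call by edgeR, with 3 and 2 members higher at an unadjusted p under 0.05, and DESeq2 called 0 and 1.

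Class II antigen genes rose beside the macrophage markers. Class II molecules carry peptides to CD4+ T cells and are made by macrophages, dendritic cells and B cells, and by some tubule cells under interferon. H2-Aa, the alpha chain of the class II molecule I-A, read 13.5, 9.80 and 11 CPM at day 2 and 48.4, 89.6 and 45.2 CPM at day 3. The day 2 libraries were alike, and all 3 day 3 libraries lay well above them. The fold was 5.31 (log2 2.41, SE 0.344, edgeR adjusted p = 0.00594), and the adjusted p was 0.0393 without day 2 replicate 2. Mean levels were 24.7 CPM in untreated kidney, 8.31 CPM at day 1, 136 CPM at day 7 and 138 CPM at day 14.

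Its promoter is shown because the list of antigen presentation genes moved with it; it lies at chr17:34287774-34288073, minus strand.
H2-Aa: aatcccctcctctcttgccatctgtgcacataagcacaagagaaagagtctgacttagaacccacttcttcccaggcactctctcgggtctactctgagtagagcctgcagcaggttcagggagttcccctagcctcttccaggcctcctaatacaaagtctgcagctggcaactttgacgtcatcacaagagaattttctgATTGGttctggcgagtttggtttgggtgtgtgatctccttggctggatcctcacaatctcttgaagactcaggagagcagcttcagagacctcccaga
The capitals mark CCAAT on the opposite strand at -48, the only match among the motifs named above. In class II promoters the Y box, which holds these letters, is a known element beside the X box. CCAAT was present in 9 of the 13 antigen presentation genes with a promoter sequence (69.2%) and in 38.3% of all tested genes with one.

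Cd74, the invariant chain that guides class II molecules to the endosome, read 46.3, 41.2 and 41.1 CPM at day 2 and 219, 314 and 209 CPM at day 3. The rise was as even as that of H2-Aa (log2 2.53, SE 0.410, edgeR adjusted p = 0.0116), and the call was lost narrowly without day 2 replicate 2 (log2 2.49, adjusted p = 0.0548). H2-Ea-ps, annotated as a pseudogene because the reference strain carries a broken copy of the class II E alpha gene, read 3.40, 0.845 and 4.65 CPM and then 17.3, 25.4 and 15.7 CPM (adjusted p = 0.0186 and 0.0548). H2-Ab1, the beta chain of I-A, read 19.4, 5.75 and 26.6 CPM and then 69.4, 71.9 and 44.8 CPM, which did not pass (adjusted p = 0.0701). H2-K1, a class I gene, read 21.4, 34.5 and 18.8 CPM and then 43.3, 74.1 and 47.4 CPM (adjusted p = 0.0896).

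Of 19 antigen presentation entries 18 were tested, 2 rose and none fell by edgeR (0 lower at an unadjusted p under 0.05, and 0 by DESeq2). Apart upwards lay 9 of the 18 (50%) and downwards none, against 9% and 6.56% of all genes tested. The median log2 fold change was 1.25. The summed level was 276 to 355 CPM at day 2, 659 to 939 CPM at day 3 and 227 to 294 CPM in untreated kidney. Reads of class I and class II relatives can align to several members, so values within this list are uncertain. Ifi203, an interferon-inducible gene outside the list that shares exonic bases with Mndal, rose with all libraries, from 4.97, 5.41 and 4.11 CPM to 13.4, 27.7 and 17.4 CPM (adjusted p = 0.0166 and 0.0548). Of 35 interferon response genes, none was called by edgeR, 9 were higher at an unadjusted p under 0.05 and 2 by DESeq2. In 8 the day 3 libraries lay apart upwards (22.9%) and in 1 downwards, against 9% and 6.56% of all genes tested. The median of this list was 0.80.

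Complement genes rose as well. C1s1, which codes for the protease C1s that cleaves C4 and C2 in the classical pathway, read 0.795, 0.845 and 0.769 CPM at day 2 and 14.8, 9.02 and 3.99 CPM at day 3. The day 2 libraries were at the untreated mean of 0.826 CPM, and the 3 day 3 libraries differed among themselves but all lay above it. The fold was 11.6 (log2 3.53, SE 0.554, edgeR adjusted p = 0.00932), with an adjusted p of 0.0402 without day 2 replicate 2. C1s1 has a close relative, and Gm16567 overlaps its exons on the other strand, so its level is uncertain.

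C8a, a chain of the membrane attack complex, read 0.122, 0 and 0.115 CPM and then 1.29, 2.05 and 4.01 CPM (adjusted p = 0.0290 and 0.0824). It rose with all libraries only. Of 27 complement entries 26 were tested, and 11 lay apart upwards (42.3%) and none downwards, against 9% and 6.56% of all genes tested. The median of this list was 1.30. Of 30 tested cytokine and chemokine genes among 38 entries, none was called by edgeR, 10 were higher at an unadjusted p under 0.05 and 4 by DESeq2. In 7 of the 30 (23.3%) the day 3 libraries lay apart upwards, against 9% of all genes tested. Tnf was among the 7, at 0.102, 0 and 0 CPM and then 0.763, 0.909 and 0.735 CPM (adjusted p = 0.170).

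Dock10 and Scn7a, like Cyp2d9, belong to none of the lists. Dock10, an activator of the small GTPases Cdc42 and Rac, read 8.97, 4.56 and 6.61 CPM at day 2 and 35.5, 51.1 and 19.7 CPM at day 3. The groups were apart, and the fold was 5.19 (log2 2.38, SE 0.351, edgeR adjusted p = 0.00639 and 0.0393 without day 2 replicate 2). Its mean was 3.46 CPM in untreated kidney and 38.6 CPM at day 7. Scn7a, an atypical sodium channel, read 0.122, 0.676 and 0.0384 CPM and then 3.62, 3.41 and 2.10 CPM. Of the day 2 libraries, replicate 2 was the highest, and the log2 fold change was 4.12 with it and 5.04 without it (edgeR adjusted p = 0.0116 and 0.00221), and 3.47 without day 2 replicate 3 (adjusted p = 0.0240). Scn7a averaged 2.46 CPM in untreated kidney, 6.89 CPM at day 7 and 11 CPM at day 14.

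Fibrosis genes moved less uniformly. Cdh11, the cadherin of fibroblasts named in the series title, read 2.14, 0.507 and 6.15 CPM at day 2 and 5.41, 10.8 and 7.95 CPM at day 3. The groups overlapped and the adjusted p was 0.290, and its mean was 19.1 CPM at day 7 and 33.6 CPM at day 14. Col1a1 and Col3a1, the main chains of scar collagen, were apart without passing. Col1a1 read 20.0, 30.9 and 36.9 CPM and then 46.4, 184 and 39.0 CPM (adjusted p = 0.186), with day 3 replicate 2 far above the others. Col3a1 read 14.3, 21.8 and 22.3 CPM and then 38.8, 53 and 49.9 CPM (adjusted p = 0.124). Fn1, the fibronectin gene, overlapped between the days (log2 0.14, adjusted p = 0.891).

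Bgn, the small proteoglycan biglycan, rose with all libraries, from 12.4, 17.9 and 20.8 CPM to 38.1, 61.6 and 42.2 CPM (log2 1.48, SE 0.299, edgeR adjusted p = 0.0440, and 0.0908 without day 2 replicate 2). Mgp, matrix Gla protein, which restrains calcification, read 2.77, 0.676 and 4.27 CPM and then 7.93, 21.9 and 16.3 CPM (adjusted p = 0.0275 and 0.0614). Smoc2, a secreted matricellular protein, held 0, 1 and 4 reads at day 2 and read 0, 0.169 and 0.154 CPM and then 3.28, 5.27 and 1.55 CPM (adjusted p = 0.0184 and 0.0548). Serpine2, an inhibitor of thrombin and plasminogen activators, read 0.306, 0 and 0.423 CPM and then 3.05, 2.99 and 7.37 CPM (adjusted p = 0.0225 and 0.0614). Tcf21, a transcription factor of podocytes and stromal fibroblasts, read 0.713, 0.169 and 0.538 CPM and then 3.45, 3.98 and 4.17 CPM (adjusted p = 0.0184 and 0.0582). Each of these 5 genes was apart between the days and lost its call without day 2 replicate 2.

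Mmp2, the gelatinase that cleaves type IV collagen, was called on the strength of 1 library. It had 1 read over the 3 day 2 libraries, and at day 3 it read 9.19 CPM in replicate 1 but 0.644 and 0.315 CPM in the others. The ratio of pooled levels was 262, with an exact 95% interval for counting error from 46.6 to 10376, and the adjusted p was 0.0334 (0.0844 without day 2 replicate 2, and 0.0810 without day 3 replicate 1). Of 42 structural matrix genes tested among 44 entries, edgeR called Bgn alone, and the median was 0.53. In 11 (26.2%) the groups lay apart upwards and in none downwards, against 9% and 6.56% of all genes tested. In that list 15 were higher and 1 lower at an unadjusted p under 0.05, and DESeq2 called 5 higher and 0 lower. Of 26 matrix enzymes and inhibitors tested among 29, edgeR called Mmp2 alone, with 9 apart upwards and 2 downwards and a median of 0.41. There 4 were higher and 3 lower at an unadjusted p under 0.05, and DESeq2 called 1 higher and 1 lower. Of 19 myofibroblast and pericyte genes tested among 20, none was called by edgeR, 6 were higher and 1 lower at an unadjusted p under 0.05, and DESeq2 called 2 higher. In 5 of the 19 the groups lay apart upwards, and the median was 0.92, or 0.74 without day 2 replicate 2. Acta2, the smooth muscle actin of myofibroblasts, read 4.97, 55.3 and 13.9 CPM and then 8.59, 5.72 and 4.12 CPM, so that its log2 fold change was -1.99 with and -0.63 without that library, neither called.

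**Figure D3:**
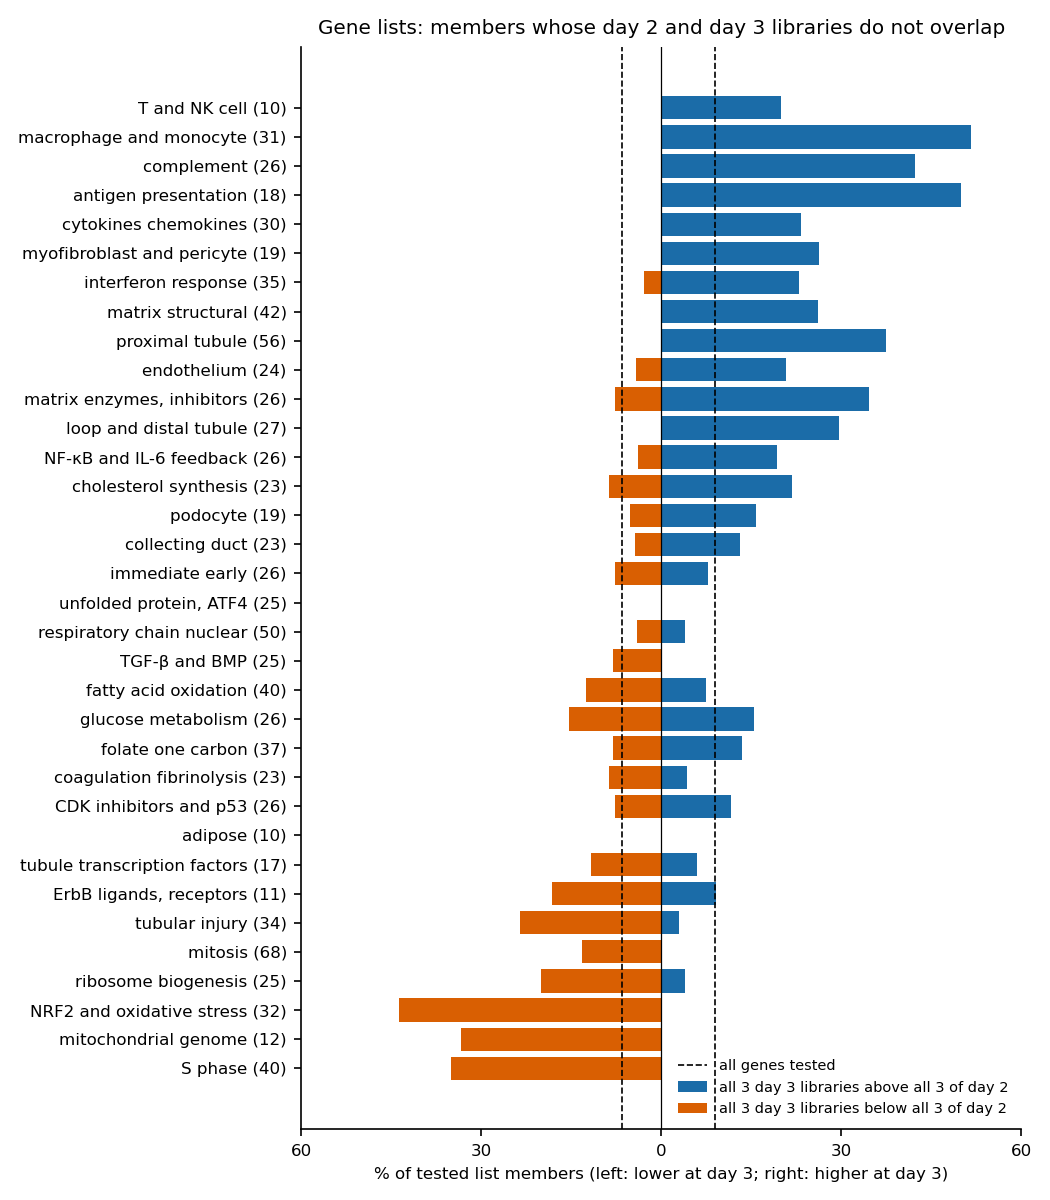
Share of the tested members of each gene list whose 3 day 3 libraries all lie above (right, blue) or all below (left, orange) the 3 day 2 libraries, for lists with at least 10 tested genes (number in brackets), ordered by median log2 fold change. Dashed lines mark the shares over all genes tested, 9% higher and 6.56% lower; macrophage (51.6%), antigen presentation (50%) and complement (42.3%) reach furthest to the right, and NRF2 (43.8%) and S phase (35%) furthest to the left.

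Injury genes of the tubule were mostly lower at day 3, and none passed in that direction by edgeR, while 1 rose. Of 34 listed and tested, 8 lay apart downwards (23.5%) and 1 upwards, 12 were lower and 2 higher at an unadjusted p under 0.05, and DESeq2 called 4 lower, or 1 without day 2 replicate 2. Among all 16824 genes tested, 1283 were lower and 1317 higher at that unadjusted threshold, while 6.56% lay apart downwards and 9% upwards. The list median was -0.44. Spp1, which codes for osteopontin, read 17838, 29626 and 13767 CPM at day 2 and 6915, 9272 and 6340 CPM at day 3, with no overlap (log2 -1.44, SE 0.416, edgeR adjusted p = 0.109). Havcr1 read 902, 678 and 1091 CPM and then 285, 679 and 359 CPM, so day 3 replicate 2 matched the lowest day 2 library (log2 -1.01, adjusted p = 0.132). Havcr1 averaged 2338 CPM at day 1 and 16.4 CPM in untreated kidney. Lcn2, the iron-binding protein NGAL, read 259, 680 and 81.7 CPM and then 147, 64.0 and 54.1 CPM, and its log2 fold change was -1.94 with and -0.95 without day 2 replicate 2. Clu, which codes for clusterin, read 772, 927 and 382 CPM and then 511, 487 and 317 CPM (log2 -0.66, adjusted p = 0.274).

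The injury gene that rose was Vcam1, an adhesion molecule for leukocytes on endothelium and on injured tubule cells. It read 72.9, 42.3 and 33.2 CPM at day 2 and 176, 313 and 106 CPM at day 3 (log2 2.00, SE 0.395, edgeR adjusted p = 0.0354, and 0.117 without day 2 replicate 2). Its mean was 1.59 CPM in untreated kidney, 22.5 CPM at day 1, 101 CPM at day 7 and 58.7 CPM at day 14, so the highest group mean was that of day 3, 198 ± 105 CPM (SD, n = 3).

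Genes of DNA replication and mitosis were lower at day 3 in most cases, but none was called by edgeR. Of 40 S phase genes tested among 41, 14 lay apart downwards (35%) and none upwards, against 6.56% and 9% of all genes tested. A negative fold was found in 34. The median log2 fold change was -0.83, or -0.71 without day 2 replicate 2. In that comparison of 3 against 2 libraries 20 of the 40 lay apart downwards, against 12.4% of all genes. At an unadjusted p under 0.05, 9 were lower and 0 higher, and DESeq2 called 5 lower with all libraries and 0 without that library. Of 68 mitosis genes, all tested, 9 lay apart downwards (13.2%) and none upwards, against 6.56% and 9% of all genes tested. A negative fold was found in 56, with list medians of -0.50 and -0.59. DESeq2 called 4 mitosis genes lower in each fit, and 9 were lower and 1 higher at an unadjusted p under 0.05. At that threshold 1283 of all 16824 genes tested were lower and 1317 higher. Over all genes DESeq2 called 346 lower with all libraries and 167 without day 2 replicate 2. The summed S phase level was 270 to 301 CPM in day 2 replicates 1 and 3, 608 CPM in replicate 2, and 176 to 199 CPM at day 3, against 102 to 120 CPM in untreated kidney.

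The size of the drop rested on day 2 replicate 2 for several cell cycle genes. Cenpe, a kinesin of the centromere, read 5.61, 1113 and 21.1 CPM at day 2 and 10.6, 3.64 and 6.03 CPM at day 3. With replicate 2 the log2 fold change was -5.81 (adjusted p = 0.0578), and without it -0.99 (adjusted p = 0.526), with the groups overlapping. Brca1, which repairs DNA breaks, read 18, 111 and 10.6 CPM and then 3.12, 1.93 and 3.91 CPM, with log2 fold changes of -3.95 and -2.26. Mcm2, part of the replicative helicase, read 9.91, 85.9 and 13.6 CPM and then 8.52, 4.17 and 5.14 CPM, with -2.60 and -0.99. Other members did not show that library as high: Uhrf1, which maintains DNA methylation after replication, read 16.3, 8.62 and 9.07 CPM and then 6.50, 2.50 and 4.07 CPM, with -1.39 and -1.55. Hells, a chromatin remodeller, read 14.9, 13.4 and 10.3 CPM and then 5.64, 6.78 and 6.22 CPM. Mki67, the proliferation marker Ki-67, read 58.2, 107 and 69.5 CPM and then 51.2, 33.7 and 48.7 CPM (adjusted p = 0.326). Pcna, the sliding clamp of replication, overlapped between the days (log2 -0.91, adjusted p = 0.323). Cdkn1a, the cell cycle inhibitor p21, read 8.58, 8.28 and 52.8 CPM and then 8.86, 14.7 and 7.74 CPM, overlapping as well.

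CCAAT was present in 20 of 31 S phase promoters (64.5%) and in 41 of 58 mitosis promoters (70.7%). Over all tested genes with a promoter sequence the share was 38.3%. Among genes called with all 18 libraries it was 6 of 22 (27.3%) for those higher and 1 of 4 (25%) for those lower. Among genes called in both fits it was 3 of 8 (37.5%). None of these shares of called genes was above that of all tested genes. TTTGAA, the core of the element that represses such genes outside mitosis, was in 37 of the 58 mitosis promoters (63.8%) and in 12.7% of all tested genes with a promoter sequence. The E2F letters TTTGGCGC or their variant TTTCCCGC were in 10 of the 31 S phase promoters (32.3%) and in 2.78% of all.

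**Figure D4:**
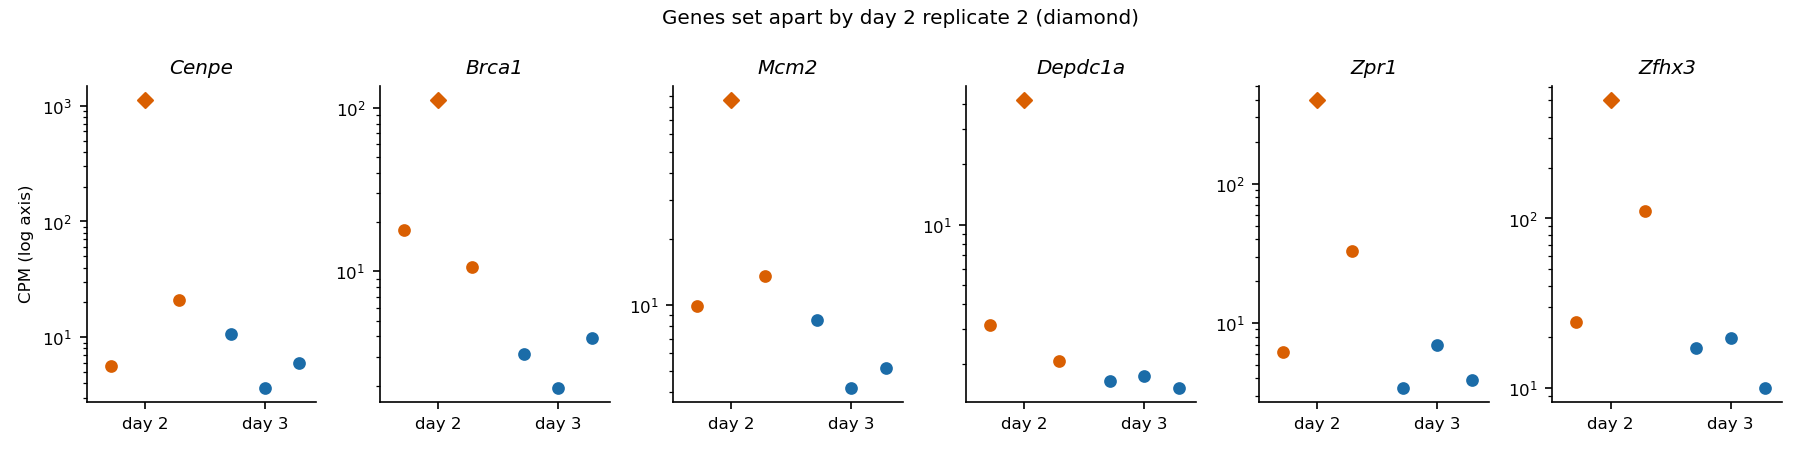
CPM (log axis) in the 3 day 2 libraries (orange, replicate 2 as a diamond) and the 3 day 3 libraries (blue) for 6 genes chosen after their values were seen. In each panel the diamond is the highest point: Cenpe reads 1113 CPM there against 21.1 CPM at most in the other 5 libraries, and Zpr1 396 against 33.1 CPM.

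The 5 genes that fell with all 18 libraries were all lost without day 2 replicate 2. Amz2, a metalloprotease of the archaemetzincin family, read 25.9, 22.5 and 24.3 CPM at day 2 and 4.78, 6.82 and 11.1 CPM at day 3. The day 2 libraries were alike, and the fold was of like size in both fits (log2 -1.68 and -1.73, edgeR adjusted p = 0.0290 and 0.0594). It shares exonic bases with Slc16a6 on the other strand. Zfhx3, a homeobox transcription factor, read 24.5, 498 and 111 CPM and then 17.1, 19.6 and 9.97 CPM (log2 -3.76 and -2.13, adjusted p = 0.0275 and 0.113). Zpr1, a zinc finger protein, read 6.20, 396 and 33.1 CPM and then 3.42, 6.93 and 3.91 CPM, so the groups overlapped (log2 -4.93 and -2.06, adjusted p = 0.0495 and 0.225). Hba-a2, an alpha globin gene of red blood cells, had 63 reads over day 2 and none over day 3, which is at least 24.5-fold lower against a floor of 3 counts over the group (adjusted p = 0.0354 and 0.0548). Its near copy Hba-a1 had 53 reads and none, and reads of the pair are uncertain. Of the 7 red blood cell genes tested among 12 entries, 2 lay apart downwards and 1 upwards. At an unadjusted p under 0.05, 4 were lower and 1 higher, and DESeq2 called 3 lower and 1 higher. The list median was -3.55, or -2.79 without day 2 replicate 2. The summed level overlapped, at 22.7 to 51.9 CPM at day 2 and 24.3 to 39.0 CPM at day 3.

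Genes of the antioxidant response were lower at day 3. Of 32 tested NRF2 and oxidative stress genes among 33, 14 lay apart downwards (43.8%) and none upwards, against 6.56% and 9% of all genes. The median log2 fold change was -0.62, or -0.45 without day 2 replicate 2. None was called by edgeR, 14 were lower at an unadjusted p under 0.05 and DESeq2 called 7 lower, or 4 without that library. Ftl1, the ferritin light chain, read 198, 278 and 230 CPM and then 127, 98.7 and 113 CPM (log2 -1.06, SE 0.230, edgeR adjusted p = 0.0602). Gsr, glutathione reductase, read 57.2, 65.6 and 43.7 CPM and then 25.1, 23.9 and 30.5 CPM (adjusted p = 0.0707). Txnrd1, thioredoxin reductase, read 63.6, 30.1 and 27.7 CPM and then 18, 21.6 and 12.6 CPM (adjusted p = 0.0896). In all 3 genes each day 3 library was below each day 2 library, and the fold stayed below 0 without replicate 2.

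Of 25 ribosome biogenesis genes, 5 lay apart downwards (20%) and 1 upwards, against 6.56% and 9% of all genes tested. The median was -0.54 in both fits. None was called by edgeR, 6 were lower at an unadjusted p under 0.05, and DESeq2 called 2 lower. Npm1, nucleophosmin of the nucleolus, read 233, 233 and 344 CPM and then 152, 148 and 128 CPM (adjusted p = 0.108). The 12 tested genes for proteins of the mitochondrial genome had a median of -0.65, and -0.18 without day 2 replicate 2. Their summed level was 81622 CPM in that library and 33933 to 43448 CPM in the other 2 day 2 libraries, against 31617 to 38114 CPM at day 3. With the mitochondrial genes left out of the fit, edgeR called 44 genes, against 42 with them. Lists of the nuclear respiratory chain, fatty acid oxidation, the unfolded protein response and folate metabolism had medians of 0.05, 0.05, 0.08 and 0.02, and edgeR called none of their members. At an unadjusted p under 0.05, 2, 2, 1 and 5 members were higher and 3, 5, 1 and 4 lower, and DESeq2 called 0, 1, 0 and 2 higher and 0, 2, 0 and 1 lower. Over all 16824 genes tested, 1317 were higher and 1283 lower at that unadjusted threshold.

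**Figure D5:**
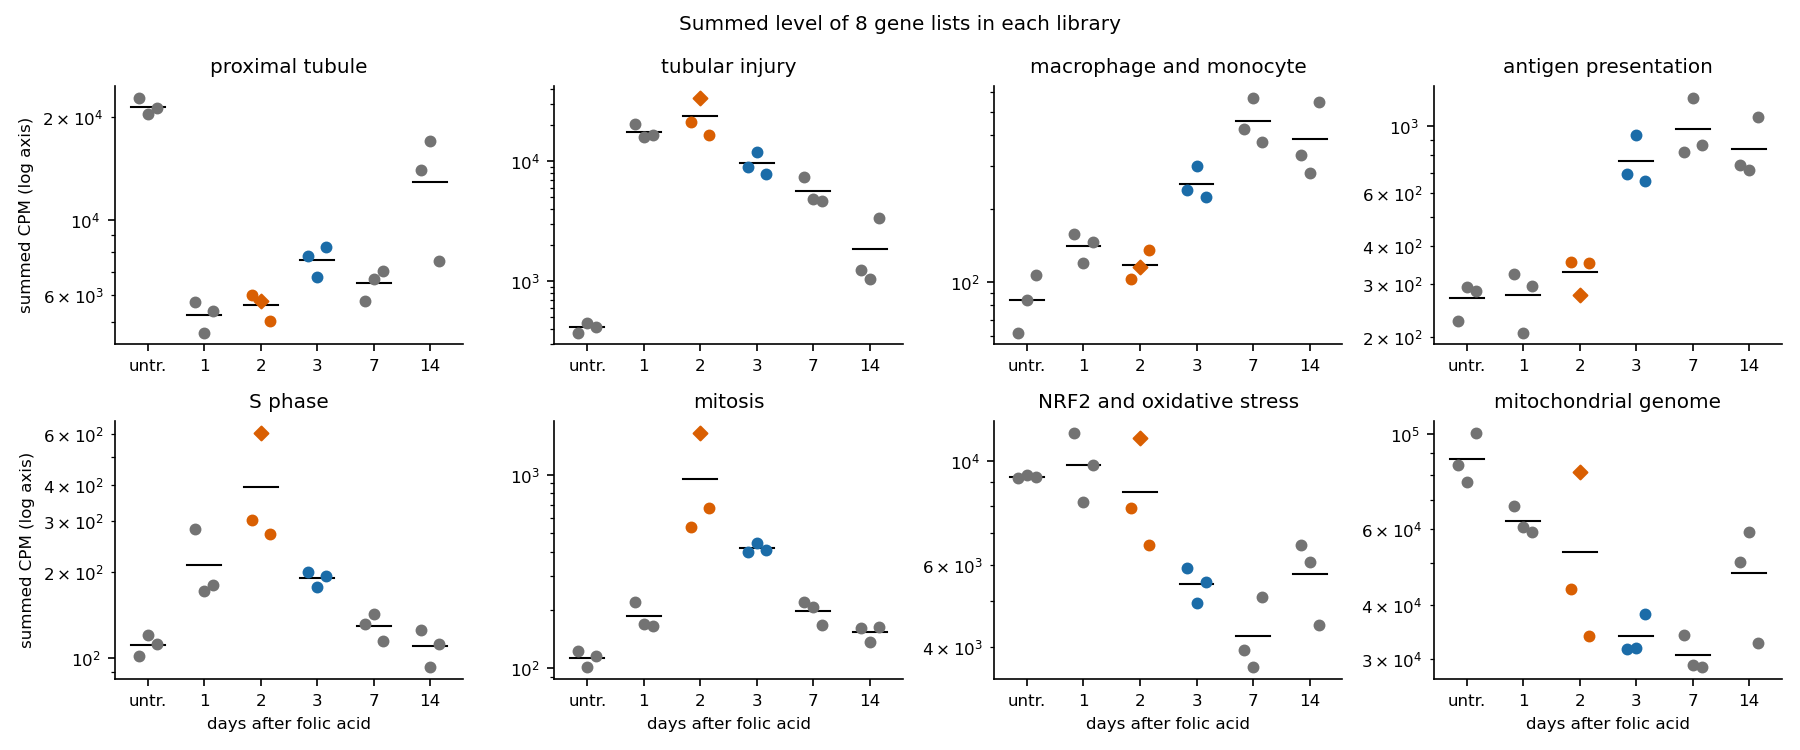
Summed CPM (log axis) of 8 gene lists in each of the 18 libraries by days after folic acid, with day 2 in orange, day 3 in blue, day 2 replicate 2 as a diamond and group means as lines. Macrophage and antigen presentation sums do not overlap between day 2 and day 3. Day 2 replicate 2 is the highest of its group for tubular injury, S phase, mitosis, NRF2 and the mitochondrial genome. Single genes make up most of 2 of these sums there: Cenpe 1113 of 1647 CPM for mitosis and Spp1 29626 of 33944 CPM for tubular injury.

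Leaving out day 2 replicate 2 brought in 4 genes, all higher at day 3. Tnfsf10, which codes for the death ligand TRAIL, read 5.58, 14.7 and 2.69 CPM at day 2 and 16.9, 28.2 and 29.9 CPM at day 3, with adjusted p-values of 0.0789 with and 0.0165 without that library. Abca4, a lipid transporter, read 0.163, 0.676 and 0.0384 CPM and then 1.89, 2.16 and 1.23 CPM (adjusted p = 0.0707 and 0.0393). Usp13, a deubiquitinase, held 1, 4 and 2 reads in day 2 replicates 1 to 3 and read 1.36, 5.08 and 2.26 CPM at day 3 (adjusted p = 0.0769 and 0.0402). Pltp, the phospholipid transfer protein of plasma, had 1 read over day 2, in replicate 2, and 82 over day 3, a ratio of 70.2 with an exact 95% interval for counting error from 12.2 to 2805. Without that library its level was at least 21.7-fold higher at day 3, against a floor of 3 counts over the group (edgeR adjusted p = 0.0393, and 0.0615 with all libraries). Pltp overlaps the exons of Ctsa on the other strand. In all 4 genes the 3 day 3 libraries lay above the 3 of day 2, and replicate 2 was the highest of day 2.

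The remaining 3 genes rose with all 18 libraries only. Stard9, a kinesin needed for centrosome integrity that overlaps Cdan1 on the other strand, read 2.04, 1.52 and 2.92 CPM and then 13.7, 27.3 and 9.47 CPM (edgeR adjusted p = 0.0139 and 0.0609 without day 2 replicate 2). Abca9, a transporter of the ABC family, read 1.12, 0.338 and 0.384 CPM and then 4.25, 10.7 and 12.1 CPM (adjusted p = 0.0147 and 0.0582). 1700071M16Rik, which overlaps Pla2g7 on the other strand, had 1 read over day 2 and 188 over day 3 (adjusted p = 0.0354 and 0.0908). In each of them the groups were apart.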

How the data were processed

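Per the labels' protocols, total RNA was extracted from frozen kidney with TRIzol, and libraries were made from a small amount of it by NuGEN's isothermal amplification. Per the submitters' processing notes, the tools were cutadapt, TopHat2 2.07, HTSeq and DESeq, with build NCBIM37; whether counting used strand is not given in the sources used here. The deposited tables give a raw count of reads for each of 37991 gene identifiers, and their 5 tallies of unassigned reads were dropped; symbols were found for 32919 identifiers in GENCODE M21, a later build. The authors' normalized counts were not used.

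The test was edgeR's quasi-likelihood F test (version 4.0.16, two-sided, with TMM scaling and filterByExpr over 6 groups) in 1 fit of all 18 libraries, and again without day 2 replicate 2, with Benjamini-Hochberg adjusted p under 0.05. In the second fit the 2 remaining day 2 libraries are assumed to vary like the other groups. Where 2 adjusted p-values or log2 fold changes are given, the first is from all 18 libraries and the second from the fit without that library. Levels are CPM with TMM scaling and are compared within a gene only. Intervals and floors cover counting error only, since the reads carry no molecular identifiers and copies of 1 molecule count several times.

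The comparison, the 40 gene lists (1083 entries, 1076 found, 987 tested) and the tests were chosen with earlier results of these data known. Named genes were the largest changes called in both fits with a mean of at least 10 CPM, called list members, a panel of 20 genes, and, because calls were few, all other called genes, chosen after their values were seen; 2 called genes are not reported here by name. List members that were not called, other than those of the panel, were also named after their values were seen. Promoters are from RefSeq (GRCm38.p6), matched by symbol for 11599 of the tested genes; no coordinates on NCBIM37 are given. Replicate numbers were not treated as pairs. Correlations of same-numbered day 2 and day 3 libraries, as deviations from group means, were 0.00163, 0.0216 and 0.00669. Those of differently numbered libraries ran from -0.0159 to 0.0141. With 3 libraries a day these values cannot settle whether the numbers were paired. No day 2 library was a copy of another day 2 library, and no day 3 library of another day 3 library. Other pairs were not part of that check. The tests were tried on simulated counts. Alternatives changed the scaling, filter, tool, groups fitted, replicate block and libraries. Computations used R 4.3.3, limma 3.58.1, DESeq2 1.42.0, Python 3.11.15, pandas 2.3.3 and matplotlib 3.10.9.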

Additional observations from a re-analysis of the deposited data

How the results depend on the processing

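Against the 42 genes called with all 18 libraries, scaling by library totals called 166 (150 higher and 16 lower, with the median log2 fold change of all genes moved to 0.36), no low-count filter called 388 (196 higher, 192 lower) and DESeq2 called 724 (378 higher, 346 lower). Limma-voom with sample weights called 0 (1446 at an unadjusted p under 0.05), and the 6 libraries of the comparison fitted alone called 0 (1574 at an unadjusted p under 0.05). The count was between 38 and 45 with DESeq2-type size factors, robust fitting or no mitochondrial genes. Leaving out 1 library gave from 14 to 272 calls: 14 without day 2 replicate 2, 272 without day 2 replicate 1 (198 lower) and 216 without day 2 replicate 3 (153 lower), the last 2 with replicate 2 as 1 of the 2 day 2 libraries kept, and 30 to 40 without a day 3 library. With the replicate block 30 were called, and 8 in the fit without day 2 replicate 2.

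Further alternatives for that second fit, chosen after seeing the data, moved its 14 calls to 28 with library totals, 169 with no filter, 406 with DESeq2, and 0 with limma-voom (1401 at an unadjusted p under 0.05) or with the 5 libraries of the comparison alone (1549). Without day 3 replicate 1, 2 or 3 as well, it called 5, 4 and 15, so its calls also rest on day 3 replicates 1 and 2.

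In the fit of all 18 libraries, the 10 genes called in both fits kept direction and call in 13 of 15 alternatives each. For 1 of these 13, the fit without day 2 replicate 2, the call was fixed, since the genes were picked by it. The calls were lost in limma-voom and in the 6 libraries alone, where adjusted p reached 0.420. In the fit without day 2 replicate 2, those 2 alternatives again lost all 10, the replicate block kept 5, and leaving out day 3 replicate 1, 2 or 3 kept 3, 4 and 9, with adjusted p up to 0.0993 where a library was left out. No gene called with all 18 libraries changed direction under any alternative to that fit. Leaving out another library also moved the fold of some other called genes by over 1.5 times, to a log2 value of 9.01 for Etnppl, 6.98 for Smoc2 and 3.50 for Ces1d without day 2 replicate 3, of 6.55 for Slc22a22, 4.59 for Abca9 and -6.19 for Hba-a2 without day 2 replicate 1, and of 4.88 for Mmp2 without day 3 replicate 1. With 2.83 M reads (1e6) outside the mitochondrial genes in day 2 replicate 2, a gene without a read there may not have been detectable at that depth.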

Other observations

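Of 24 endothelial genes tested, 5 lay apart upwards (20.8%) and 1 downwards, and 9 and 2 did without day 2 replicate 2. Over all genes the shares were 9% and 6.56% with all libraries, and 13.7% and 12.4% without that library. The median log2 fold change was 0.42, about that of the proximal tubule list, and 0.46 without that library; edgeR called none (3 higher at an unadjusted p under 0.05, and 1 by DESeq2). Emcn, the endothelial sialomucin endomucin, read 4.20, 5.24 and 4.92 CPM at day 2 and 7.10, 8.15 and 8 CPM at day 3, against a mean of 32.5 CPM in untreated kidney (adjusted p = 0.374). Of 19 podocyte genes tested, Tcf21 was the only call, and the median was 0.24. Vegfa, the vascular growth factor made by podocytes and tubule cells, read 24.9, 27.2 and 29.4 CPM and then 46.4, 37.7 and 45.5 CPM (adjusted p = 0.118).

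Among 23 cholesterol synthesis genes, 5 lay apart upwards (21.7%) and 2 downwards (8.70%), against 9% and 6.56% of all genes tested. None was called by edgeR, 1 was higher and 2 lower at an unadjusted p under 0.05, and DESeq2 called 1 lower. The median log2 fold change was 0.26. Nsdhl, an enzyme of that pathway, read 19.3, 96.0 and 17.1 CPM and then 10.4, 8.49 and 13.9 CPM, so that its log2 fold change was -1.99 with and -0.74 without day 2 replicate 2 (edgeR adjusted p = 0.0952 and 0.492). Trpv5, the calcium channel of the distal tubule, read 25.1, 190 and 14.7 CPM and then 26.7, 18.4 and 26.2 CPM, with log2 fold changes of -1.68 and 0.25. Kif23, a kinesin of cell division, went the other way from most of its list, at 8.70, 8.96 and 10.03 CPM and then 15.7, 47.1 and 6.85 CPM, with day 3 replicate 2 far above the others (adjusted p = 0.231). These genes were chosen after their values were seen.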
